A study of Mus musculus with 12 samples.

Results

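The vascular endothelial growth factor (VEGF) family described here comprises 10 genes. There are 5 ligand genes (Vegfa, Vegfb, Pgf, Vegfc and Figf), 3 genes of receptor tyrosine kinases (Flt1, Kdr and Flt4) and 2 neuropilin genes (Nrp1 and Nrp2). The genes were taken by symbol from a table of 16218 genes, which held all 10 of them. Figf is the older symbol of Vegfd. RNA had been measured in hearts of wild-type female mice aged 12 weeks, in 3 groups of 4 animals. Sham animals were operated on without an infarct. Animals of the other groups had their left anterior descending coronary artery tied off for good, which causes a myocardial infarction (MI), and were treated with phosphate-buffered saline as the vehicle (MI+PBS) or with agrin, a proteoglycan of basement membranes (MI+Agrin). RNA was taken 2 weeks after the infarction. The labels do not state the form, dose or route of agrin, nor which part of the heart was sampled.

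VEGF-A is the main growth factor of blood vessels and signals in endothelial cells chiefly through the receptor KDR (VEGFR2), which drives proliferation, permeability and migration. FLT1 (VEGFR1) binds VEGF-A tightly but has a weak kinase, so that it limits how much ligand reaches KDR, and it is the receptor of VEGF-B and of placental growth factor, the product of Pgf. FLT4 (VEGFR3) is the receptor of VEGF-C and VEGF-D in lymphatic vessels. Neuropilins have no kinase of their own, act as co-receptors of VEGF and also bind class 3 semaphorins. In the heart, cardiomyocytes are a large source of VEGF-A and VEGF-B, and their receptors sit mainly on the dense capillary endothelium between them.

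Between 20238512 and 22742027 reads per library were recovered from the normalized values of 11 libraries, and sham replicate 2 had a normalized total of 21695925. Among these 11, libraries of the same group differed by 9.92 to 38.1 times the sampling noise per gene, so none of them was a copy of another. On the first principal component of all genes (40.8% of the variance) MI+PBS replicate 2 lay at 45.16, farther from sham than the other MI+PBS libraries (21.14 to 24.9), while the second component (11.9%) set off MI+Agrin replicate 1, at -40.17. Results were therefore also computed without both. The heart label was borne out by its markers. The 14 markers of ventricular cardiomyocytes summed to between 1321281 and 2583984 normalized counts per library, whereas 5 markers of lung epithelium summed to at most 686, in sham replicate 2.

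Coordinates are those of mm10. Among the ligand genes, Vegfa is on chromosome 17 (46016993 to 46032369), Vegfb on chromosome 19 (6982473 to 6987651) and Pgf on chromosome 12 (85166635 to 85177790). Vegfc lies on chromosome 8 (54077606 to 54187096) and Figf on the X chromosome (164373378 to 164402650). Flt1 (147561604 to 147726011) and Kdr (75932827 to 75978458) share chromosome 5, and Flt4 is on chromosome 11 (49609263 to 49652739). Nrp1 is on chromosome 8 (128358604 to 128503363) and Nrp2 on chromosome 1 (62703285 to 62818695). Exons of 9 members share no base with those of another annotated gene, and Nrp1 shares 0.82% of its exon bases with a microRNA gene on the same strand. The counts are per gene, so that the soluble and the membrane form of FLT1, or the splice forms of VEGF-A, are summed.

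Levels of different genes were compared as normalized counts per kilobase of exon. In sham hearts Vegfb (2848 ± 213, SD, n = 4) and Vegfa (1946 ± 21.9) stood highest. Nrp1 (698.8 ± 48.8) and Kdr (659.4 ± 58.1) followed and did not differ beyond their spread. Flt1 (244 ± 6.06), which binds both of the highest ligands, was 2.7 times lower than Kdr on this scale. Nrp2 (178.1 ± 20.6) came next. Vegfc (108 ± 6.88) and Flt4 (103.4 ± 5.39), a ligand and its receptor, overlapped, as did Figf (61.95 ± 11.3) and Pgf (60.12 ± 5.18) at the low end. The exon length is that of all annotated transcripts together, which understates genes with long rare forms.

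All 10 members passed the filter on low values, a mean of at least 5 normalized counts. In MI+PBS against sham hearts, Pgf and Figf rose, Vegfb, Vegfc, Kdr and Nrp1 fell and 4 members did not pass (limma, Benjamini-Hochberg adjusted over 14906 genes, threshold 0.05). A called share of 6 in 10 stands beside 44.4% of all genes tested (22.6% higher and 21.8% lower), so a count of this kind is common in this comparison. With agrin against PBS after infarction, Kdr rose and 9 members did not pass, where 1.64% of all genes were called (0.751% higher and 0.892% lower). No member fell in that comparison by limma, edgeR or DESeq2, and 4 members, Kdr among them, had an unadjusted limma p under 0.05. Between MI+Agrin and sham hearts, Pgf rose, Vegfb, Vegfc and Nrp1 fell and 6 members did not pass, with 28.6% of all genes called (15.4% higher and 13.2% lower). The median log2 fold changes of the 10 members were -0.08, 0.08 and -0.09 in these comparisons, against -0.01, 0.00 and 0.00 for all genes. The groups did not overlap for 6 members in MI+PBS against sham hearts (41.9% of all genes), for 1 in MI+Agrin against MI+PBS hearts (9.04%) and for 4 in MI+Agrin against sham hearts (32.4%). The comparisons share libraries, so their values are given side by side and are not independent of each other.

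**Figure D1:**
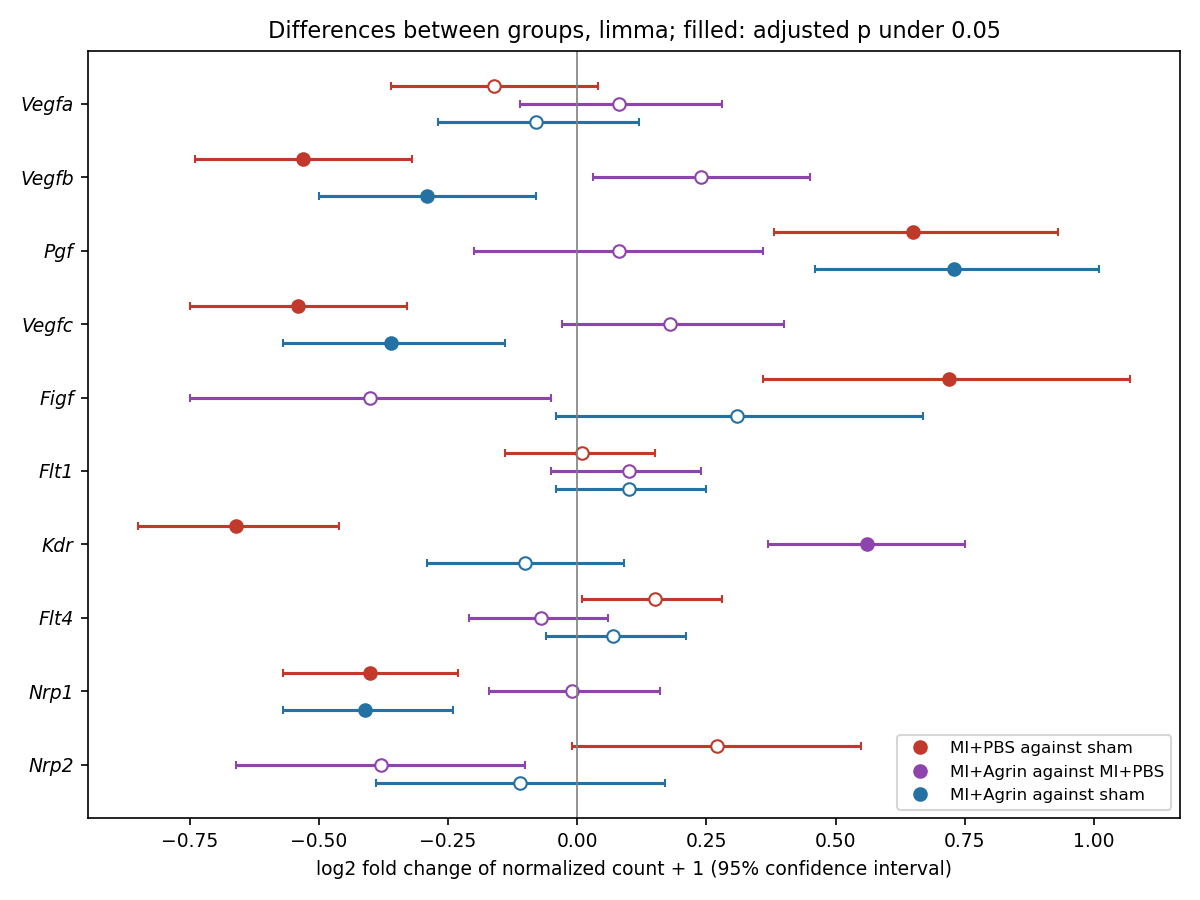
Log2 fold changes of the 10 members in the 3 comparisons, on the log2(normalized count + 1) scale, with 95% confidence intervals from limma; filled points passed an adjusted p of 0.05. Kdr lies at -0.66 in MI+PBS against sham hearts and at 0.56 in MI+Agrin against MI+PBS hearts, whereas the intervals of Flt1 and Flt4 stay between -0.21 and 0.28.

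Kdr was the member with the largest fall after infarction and the one called higher with agrin than with PBS. Its normalized counts were 6266, 6296, 5182 and 6073 in sham replicates 2, 3, 4 and 5, and 4204, 3623, 4093 and 3207 in MI+PBS replicates 1, 2, 3 and 5. In MI+Agrin replicates 1, 3, 4 and 5 they were 5414, 5812, 5149 and 5818. All 4 MI+PBS hearts lay below every other heart, and the MI+Agrin and sham hearts overlapped. Kdr fell by 0.66 ± 0.09 on the log2 scale in MI+PBS against sham hearts, which is 0.634-fold (limma adjusted p = 0.00014). With agrin it was 1.47-fold higher than with PBS (0.56 ± 0.09, limma adjusted p = 0.00756), and 5.67% of all genes tested had a larger absolute change. Against sham, MI+Agrin hearts differed by -0.10 ± 0.09 (limma adjusted p = 0.434), with a 95% interval from -0.29 to 0.09. Without MI+PBS replicate 2 and MI+Agrin replicate 1, the difference between agrin and PBS was 0.55 ± 0.11 (limma adjusted p = 0.0445).

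**Figure D2:**
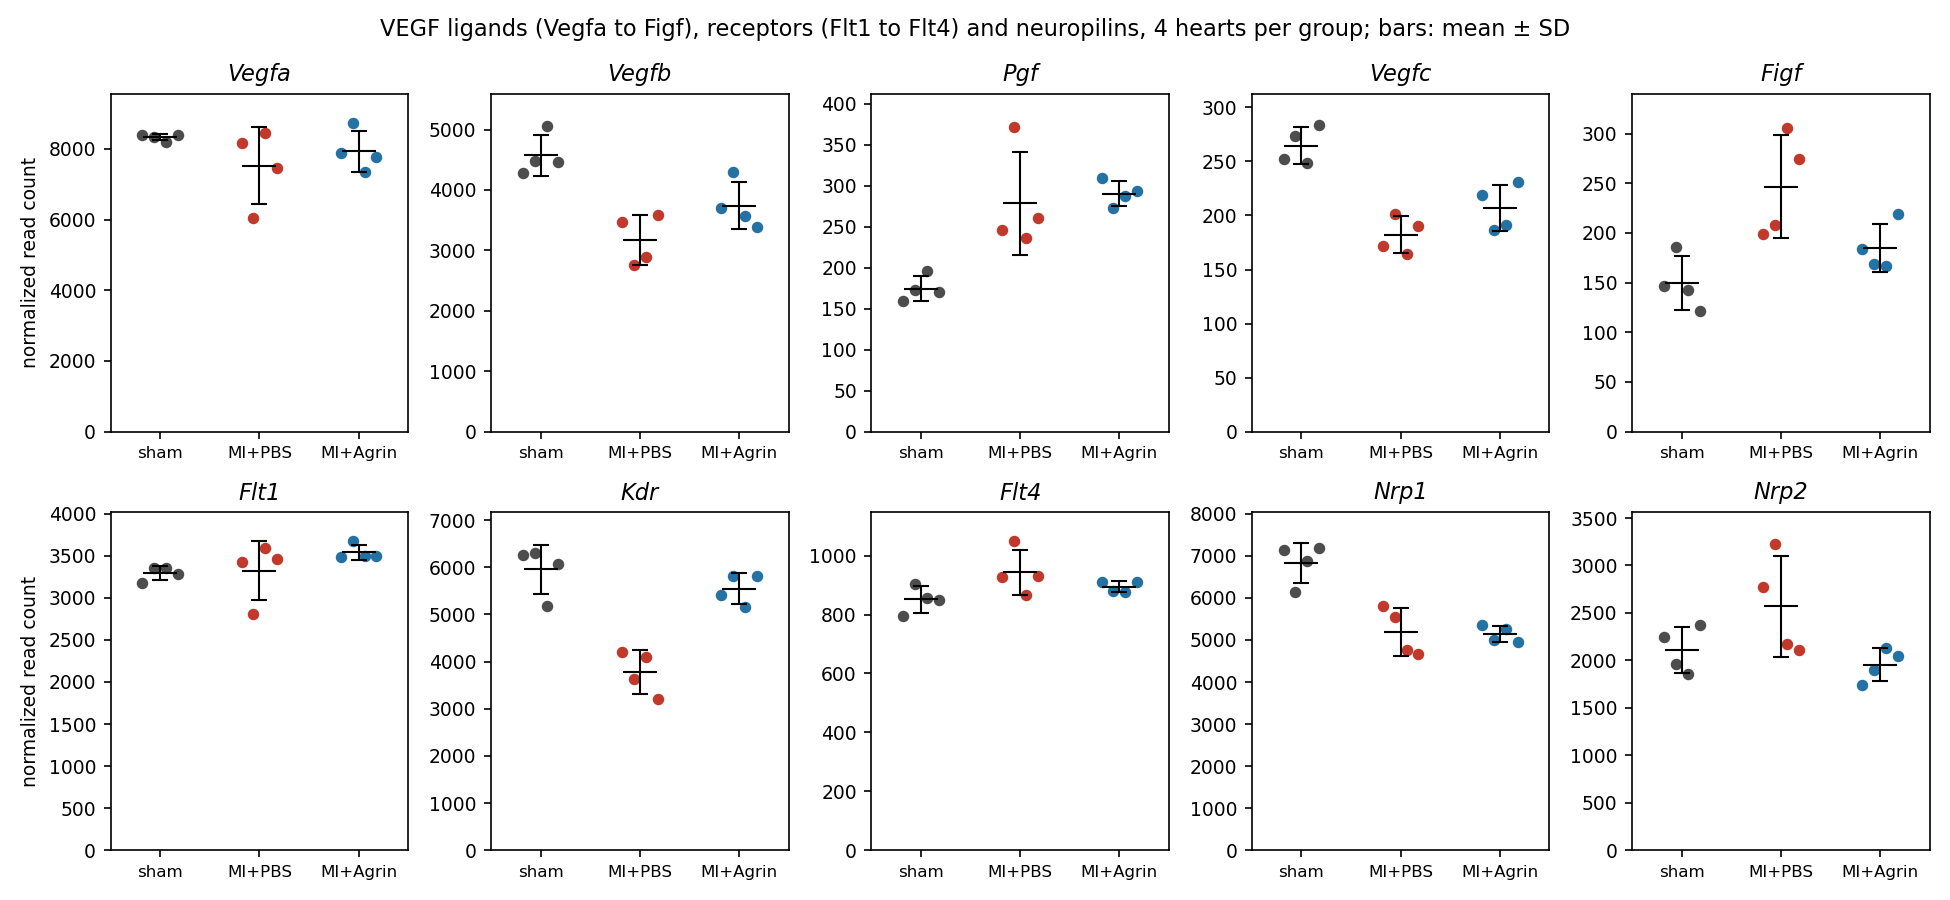
Normalized read counts of the 10 members in each of the 12 hearts (points, from left to right in the order of the replicate numbers), with the mean ± SD of 4 hearts per group; every axis starts at 0. Kdr is between 3207 and 4204 in the MI+PBS hearts and between 5149 and 6296 in all other hearts.

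Flt1, the other VEGF-A receptor of blood vessel endothelium, did not pass in any comparison. It stood at 3295 ± 81.8 (SD, n = 4) normalized counts in sham, 3325 ± 353 in MI+PBS and 3541 ± 92.7 in MI+Agrin hearts. MI+PBS replicate 2, at 2806, was low against 3432 to 3595 in the other MI+PBS hearts. The differences were 0.01 ± 0.07 after infarction (limma adjusted p = 0.947, 95% interval -0.14 to 0.15), 0.10 ± 0.07 for agrin against PBS (limma adjusted p = 0.456, interval -0.05 to 0.24) and 0.10 ± 0.07 for agrin against sham (limma adjusted p = 0.274). The sign of the first of these turned when single libraries were left out (-0.03 to 0.09). The fit pools the spread of all 3 groups, MI+PBS replicate 2 included. Without that library, agrin against sham was 0.10 ± 0.04 (limma adjusted p = 0.0635), which did not pass either. All 4 MI+Agrin hearts, from 3491 to 3680, lay above all 4 sham hearts, from 3182 to 3356. Such a separation was seen in 32.4% of all genes there.

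The promoters of Kdr and Flt1 are shown because the genes encode receptors of the same ligand on the same cells while Kdr changed and Flt1 did not pass. Each sequence holds 250 bases before and 50 after the annotated start (RefSeq, GRCm38.p6, which is mm10, minus strand for both), at chr5:75978406-75978705 for Kdr and chr5:147725962-147726261 for Flt1. Capitals mark matches, on either strand, to the hypoxia-inducible factor cores ACGTG and GCGTG and the metal response elements TGCACNC and TGCGCNC. Matches to CCGGAA, a longer form of ETS factor sites, and to the GC box GGGCGG are also in capitals.
Kdr: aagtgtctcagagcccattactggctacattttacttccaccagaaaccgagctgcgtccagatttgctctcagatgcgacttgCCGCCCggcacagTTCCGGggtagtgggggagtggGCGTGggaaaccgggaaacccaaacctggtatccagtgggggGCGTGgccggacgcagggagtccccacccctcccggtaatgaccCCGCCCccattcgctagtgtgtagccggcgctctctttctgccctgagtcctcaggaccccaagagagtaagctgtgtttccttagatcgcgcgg
Flt1: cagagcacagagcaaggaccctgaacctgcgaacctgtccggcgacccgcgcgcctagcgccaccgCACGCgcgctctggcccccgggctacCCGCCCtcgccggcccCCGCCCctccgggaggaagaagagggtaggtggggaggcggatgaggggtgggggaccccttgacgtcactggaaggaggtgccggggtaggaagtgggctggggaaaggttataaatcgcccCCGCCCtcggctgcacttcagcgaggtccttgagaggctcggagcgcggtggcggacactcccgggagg
The Kdr window held 5 matches. They were GCGTG beginning 131 and 89 bases before the start, CCGGAA on the other strand beginning 153 bases before it, and GGGCGG on the other strand at 166 and 45 bases. The Flt1 window held 4 matches, GCGTG at 184 bases and GGGCGG at 158, 142 and 19 bases before the start, all on the other strand. GCGTG is present in 48% and GGGCGG in 59.5% of the 13993 promoters of tested genes. CCGGAA, found here in Kdr and not in Flt1, is present in 24.3%. The shorter letters GGAA, which ETS factor sites share, were not marked and occur in both windows. A match describes the letters and shows no binding.

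Flt4, the receptor of VEGF-C and VEGF-D, did not pass either. Its levels were 851 ± 44.4 (SD, n = 4) normalized counts in sham, 944 ± 76.9 in MI+PBS and 894 ± 18.7 in MI+Agrin hearts. The difference after infarction was 0.15 ± 0.06 (limma adjusted p = 0.074), with 3 of 4 MI+PBS hearts above every sham heart, and without MI+PBS replicate 3 it passed (0.19 ± 0.06, limma adjusted p = 0.0306). For agrin against PBS it was -0.07 ± 0.06 (limma adjusted p = 0.54, 95% interval -0.21 to 0.06). Other markers of lymphatic endothelium moved in both directions after infarction. Of 6 tested, Pdpn, Foxc2 and Lyve1 rose, Prox1 and Reln fell, and 0 passed for agrin against PBS by limma or edgeR, with 2 at an unadjusted limma p under 0.05 and 1 called higher by DESeq2. The summed level of the 6 was 3177 to 3561 normalized counts in sham, 2972 to 3863 in MI+PBS and 3378 to 4291 in MI+Agrin hearts, and their part in the level of Flt4 was not tested.

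Of the ligand genes, Pgf rose in infarcted hearts whether or not agrin was given. Placental growth factor acts through FLT1 and draws in monocytes and macrophages. Its normalized counts were 159.7, 172, 195 and 170.4 in sham replicates 2, 3, 4 and 5, and 246, 372, 237 and 261 in MI+PBS replicates 1, 2, 3 and 5. The MI+Agrin replicates 1, 3, 4 and 5 held 309, 272, 287 and 293. All 8 infarcted hearts lay above every sham heart, and MI+PBS replicate 2 was the highest of all. Pgf was 1.57-fold higher in MI+PBS than in sham hearts (0.65 ± 0.13, limma adjusted p = 0.00136), or 0.51 ± 0.09 without MI+PBS replicate 2 (limma adjusted p = 0.00108). It was 1.66-fold higher in MI+Agrin than in sham hearts (0.73 ± 0.13, limma adjusted p = 0.00169). Agrin and PBS hearts differed by 0.08 ± 0.13 (limma adjusted p = 0.768), with a 95% interval from -0.20 to 0.36. All 14 macrophage markers tested rose in both groups of infarcted hearts against sham, and their summed level was 23749 to 29534 normalized counts in sham, 53338 to 68843 in MI+PBS and 37487 to 61475 in MI+Agrin hearts. The part of macrophages in the level of Pgf was not tested. These are bulk samples, so more cells of a type and more RNA per cell cannot be told apart.

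The promoter of Pgf is shown as that of the member which rose in both groups of infarcted hearts. RefSeq lists a pair of starts for the gene, and the upstream one is given here, with capitals as for Kdr. The window is chr12:85177264-85177563 on the minus strand of GRCm38.p6. The GENCODE gene extends upstream of this window, to 85177790, and the letters beyond the window were not examined.
Pgf: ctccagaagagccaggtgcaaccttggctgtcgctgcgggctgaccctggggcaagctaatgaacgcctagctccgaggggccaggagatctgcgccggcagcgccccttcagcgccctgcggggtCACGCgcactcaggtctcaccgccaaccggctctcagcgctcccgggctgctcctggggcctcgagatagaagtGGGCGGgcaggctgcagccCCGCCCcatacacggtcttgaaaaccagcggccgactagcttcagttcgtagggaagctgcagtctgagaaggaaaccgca
It held 3 matches, GCGTG on the other strand beginning 124 bases before the start and GGGCGG at 50 and, on the other strand, 31 bases before it. The metal response elements TGCACNC and TGCGCNC, present in 12.9% and 25.2% of promoters of tested genes, did not occur in these letters, nor in those of the downstream start.

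Figf, which encodes VEGF-D, also rose after infarction. It was 149 ± 27.2 (SD, n = 4) normalized counts in sham, 247 ± 51.8 in MI+PBS and 185 ± 24.2 in MI+Agrin hearts. The MI+PBS replicates 1, 2, 3 and 5 held 199, 208, 306 and 274, all above the highest sham heart at 186. The rise was 1.64-fold (0.72 ± 0.16, limma adjusted p = 0.00344). MI+Agrin hearts lay in between, from 167 to 219, with 3 of 4 below every MI+PBS heart. Their difference from MI+PBS hearts (-0.40 ± 0.16, limma adjusted p = 0.217) and that from sham hearts (0.31 ± 0.16, limma adjusted p = 0.166) did not pass.

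Vegfc, the other ligand of FLT4, went the other way. Sham replicates 2, 3, 4 and 5 held 253, 274, 248 and 284 normalized counts, MI+PBS replicates 1, 2, 3 and 5 held 172, 202, 164 and 190.2, and MI+Agrin replicates 1, 3, 4 and 5 held 219, 187, 191 and 231. All infarcted hearts lay below all sham hearts. Vegfc fell by 0.54 ± 0.10 on the log2 scale in MI+PBS against sham hearts (limma adjusted p = 0.000846) and by 0.36 ± 0.10 in MI+Agrin against sham hearts (limma adjusted p = 0.0173). The second call was lost without sham replicate 5 (limma adjusted p = 0.0533) or without MI+Agrin replicate 4 (limma adjusted p = 0.0534). Agrin and PBS hearts differed by 0.18 ± 0.10 (limma adjusted p = 0.331).

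Vegfb, a ligand of FLT1 that is abundant in cardiomyocytes, fell after infarction. It was 4571 ± 341 (SD, n = 4) normalized counts in sham, 3174 ± 415 in MI+PBS and 3737 ± 389 in MI+Agrin hearts. All 4 MI+PBS hearts, from 2750 to 3583, lay below all sham hearts, from 4282 to 5066, while MI+Agrin replicate 3, at 4289.8, just overlapped sham. The fall was 0.691-fold in MI+PBS against sham hearts (-0.53 ± 0.10, limma adjusted p = 0.000801). In MI+Agrin against sham hearts it was 0.816-fold (-0.29 ± 0.10, limma adjusted p = 0.0373). That second call was lost with edgeR on the recovered reads (adjusted p = 0.0559), with limma without a trend (adjusted p = 0.0603) and without any one of sham replicates 3, 4 and 5 or MI+Agrin replicates 1, 4 and 5 (limma adjusted p up to 0.11). The difference between agrin and PBS, 0.24 ± 0.10, did not pass (limma adjusted p = 0.214). Of 14 markers of ventricular cardiomyocytes, 8 fell in MI+PBS and 6 in MI+Agrin against sham hearts. Their summed level was 2213931 to 2583984 normalized counts in sham, 1321281 to 1934557 in MI+PBS and 1842665 to 2089359 in MI+Agrin hearts, and their part in the level of Vegfb was not tested.

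Vegfa, the ligand of both KDR and FLT1, did not pass in any comparison. Sham hearts were close together, at 8402, 8342, 8203 and 8402 normalized counts in replicates 2, 3, 4 and 5. MI+PBS replicates 1, 2, 3 and 5 held 8173, 6032, 8460 and 7446, and MI+Agrin hearts held 7334 to 8722. In each of these groups 3 of 4 hearts lay below every sham heart and 1 lay above every sham heart. The coefficient of variation was 1.12% in sham, 14.4% in MI+PBS and 7.32% in MI+Agrin hearts. The difference after infarction was -0.16 ± 0.09 (limma adjusted p = 0.178, 95% interval -0.36 to 0.04), and -0.06 ± 0.06 without MI+PBS replicate 2. For agrin against PBS it was 0.08 ± 0.09 (limma adjusted p = 0.654), and -0.02 ± 0.06 without that library.

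Nrp1, the co-receptor of KDR for VEGF-A, fell in both groups of infarcted hearts. Sham replicates 2, 3, 4 and 5 held 7138, 6149, 6882 and 7179 normalized counts, MI+PBS replicates 1, 2, 3 and 5 held 5798, 5548, 4754 and 4676, and MI+Agrin replicates 1, 3, 4 and 5 held 5348, 5009, 5267 and 4942. All 8 infarcted hearts lay below all 4 sham hearts, and those with agrin and with PBS overlapped. The fall was 0.758-fold with PBS (-0.40 ± 0.08, limma adjusted p = 0.00112) and 0.753-fold with agrin (-0.41 ± 0.08, limma adjusted p = 0.00236). Agrin and PBS hearts differed by -0.01 ± 0.08 (limma adjusted p = 0.963), with a 95% interval from -0.17 to 0.16, and the sign of this small difference turned under 6 of 23 alternatives. The interval of Kdr in the same comparison, 0.37 to 0.75, lay wholly above it.

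Nrp2, which pairs with FLT4 in lymphatic and venous endothelium, did not pass. It was 2109 ± 244 (SD, n = 4) normalized counts in sham, 2568 ± 530 in MI+PBS and 1954 ± 175 in MI+Agrin hearts. MI+PBS replicates 1 and 2, at 2770 and 3225, were above every other heart, while replicates 3 and 5, at 2171 and 2105, were within the range of sham. The difference was 0.27 ± 0.13 after infarction (limma adjusted p = 0.109) and -0.38 ± 0.13 for agrin against PBS (limma adjusted p = 0.158). Without MI+PBS replicate 2 these were 0.15 ± 0.11 and -0.26 ± 0.11, and without MI+PBS replicate 5 the first passed (0.36 ± 0.13, limma adjusted p = 0.0424).

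The receptors and neuropilins were also set against markers of endothelium, the main carrier of the receptors, in the same heart. Which cells carry the neuropilins was not tested and cannot be read from bulk samples. The mean log2 level of 20 endothelial markers was 10.84 ± 0.04 (SD, n = 4) in sham, 10.94 ± 0.01 in MI+PBS and 10.87 ± 0.07 in MI+Agrin hearts. Their summed level was 56049 to 60249 normalized counts in sham, 59365 to 62376 in MI+PBS and 56613 to 60918 in MI+Agrin hearts, and none was at 0. Of the 20, Esam, S1pr1, Sox17 and Ecscr rose and Tek fell after infarction, S1pr1 and Esam fell with agrin against PBS, and in MI+Agrin against sham hearts Sox17 and Sox18 rose and S1pr1, Tek and Cdh5 fell. Kdr relative to these markers was 1.70 ± 0.13 log2 units in sham, 0.94 ± 0.19 in MI+PBS and 1.57 ± 0.10 in MI+Agrin hearts. All MI+PBS hearts (0.69 to 1.11) were below all others (1.45 to 1.82). The differences, -0.76 after infarction and 0.63 for agrin against PBS, stand beside -0.66 and 0.56 for Kdr itself.

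Nrp1 relative to the markers was 1.90 ± 0.08 log2 units in sham (SD, n = 4), 1.40 ± 0.16 in MI+PBS and 1.46 ± 0.10 in MI+Agrin hearts, again with all infarcted hearts below sham. Flt1 differed by -0.10 after infarction and by 0.17 for agrin against PBS and Flt4 by 0.04 after infarction. Nrp2 differed by 0.17 after infarction and by -0.30 for agrin against PBS, or by 0.05 and -0.19 without MI+PBS replicate 2. Two-sided exact permutation tests over 70 assignments gave 0.0286, the smallest p this design allows, for 5 of 15 tests. These were Kdr and Nrp1 in MI+PBS against sham, Nrp1 in MI+Agrin against sham, and Kdr and Flt1 in MI+Agrin against MI+PBS hearts. For Flt1 the groups barely parted, with the highest MI+PBS heart at 0.88 and the lowest MI+Agrin heart at 0.89. Without MI+PBS replicate 2 the difference of Flt1 was 0.09, while that of Kdr was 0.61. Adjusted over the 15 tests the exact permutation p of these 5 was 0.0857, so 0 passed. With 70 assignments none could pass unless more of the 15 tests had reached the smallest p. The outcome therefore does not decide whether these differences are real.

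**Figure D3:**
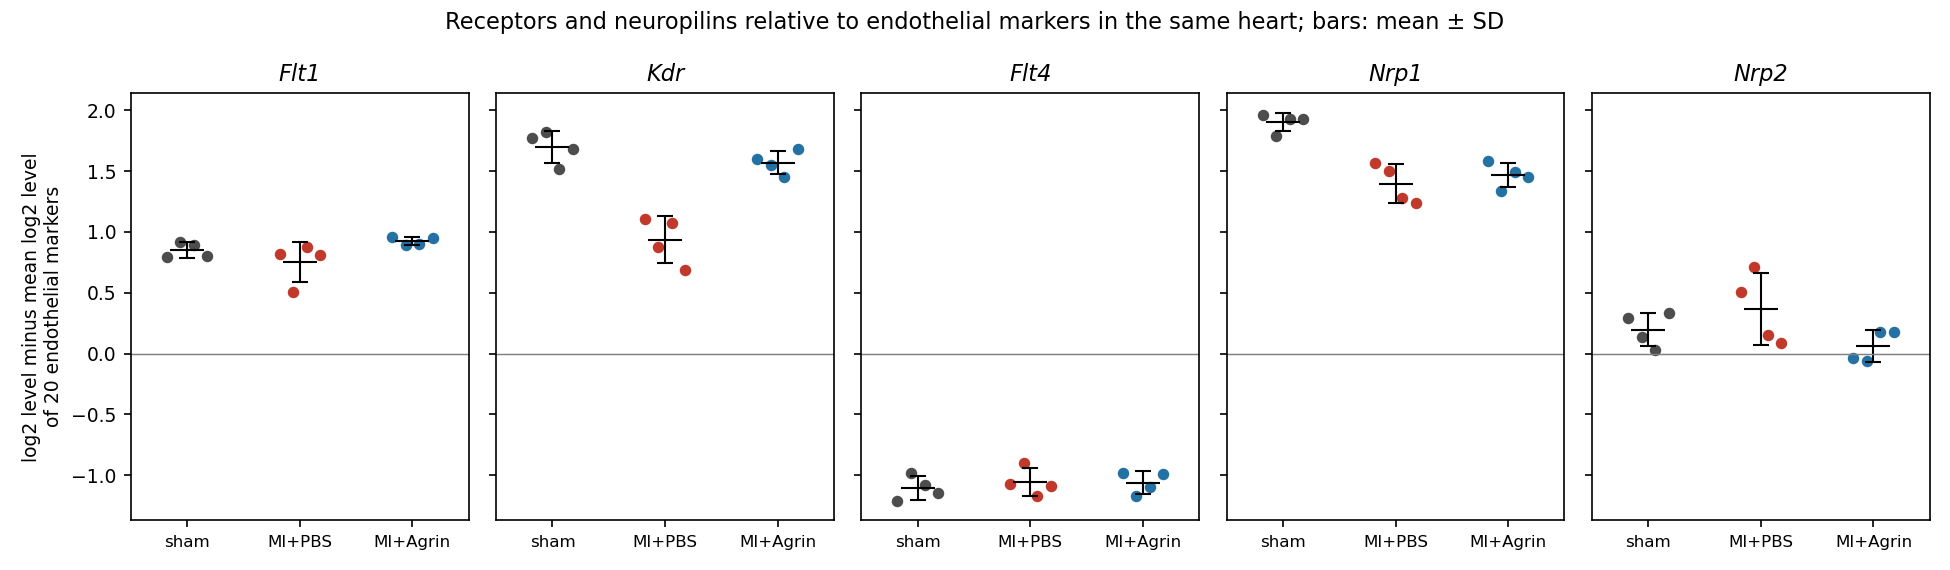
Log2 level of each receptor and neuropilin minus the mean log2 level of 20 endothelial markers in the same heart (points, in the order of the replicate numbers), with the mean ± SD of 4 hearts per group. Kdr drops from 1.70 in sham to 0.94 in MI+PBS hearts and is 1.57 in MI+Agrin hearts, Nrp1 is 1.40 and 1.46 in both groups of infarcted hearts, and Flt4 stays near -1.06 to -1.10.

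Ratios between members that share a ligand or a receptor, chosen after their values had been seen, showed the balance within each heart and do not depend on how libraries were scaled. The ratio of Kdr to Flt1 normalized counts was 1.54 to 1.97 in sham, 0.925 to 1.29 in MI+PBS and 1.47 to 1.67 in MI+Agrin hearts. MI+PBS hearts did not overlap either other group. The ratio of Figf to Vegfc, both of which encode ligands of FLT4, was 0.427 to 0.681 in sham, 1.03 to 1.86 in MI+PBS and 0.838 to 0.947 in MI+Agrin hearts, and the 3 groups did not overlap. The ratio of Nrp1 to Nrp2 was 3.02 to 3.71 in sham, 1.72 to 2.22 in MI+PBS and 2.42 to 3.08 in MI+Agrin hearts. The ratio of Pgf to Vegfa was 0.019 to 0.0238 in sham hearts and 0.028 to 0.0616 in MI+PBS hearts, where MI+PBS replicate 2, low in Vegfa and high in Pgf, gave the highest value. In MI+Agrin hearts it was 0.0312 to 0.0392, within the range of MI+PBS. No test was made of these ratios, and how often ratios of other gene pairs separate the groups was not examined. Single genes did not overlap in 41.9% of cases for MI+PBS against sham hearts. That share was 9.04% for MI+Agrin against MI+PBS and 32.4% for MI+Agrin against sham hearts.

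**Figure D4:**
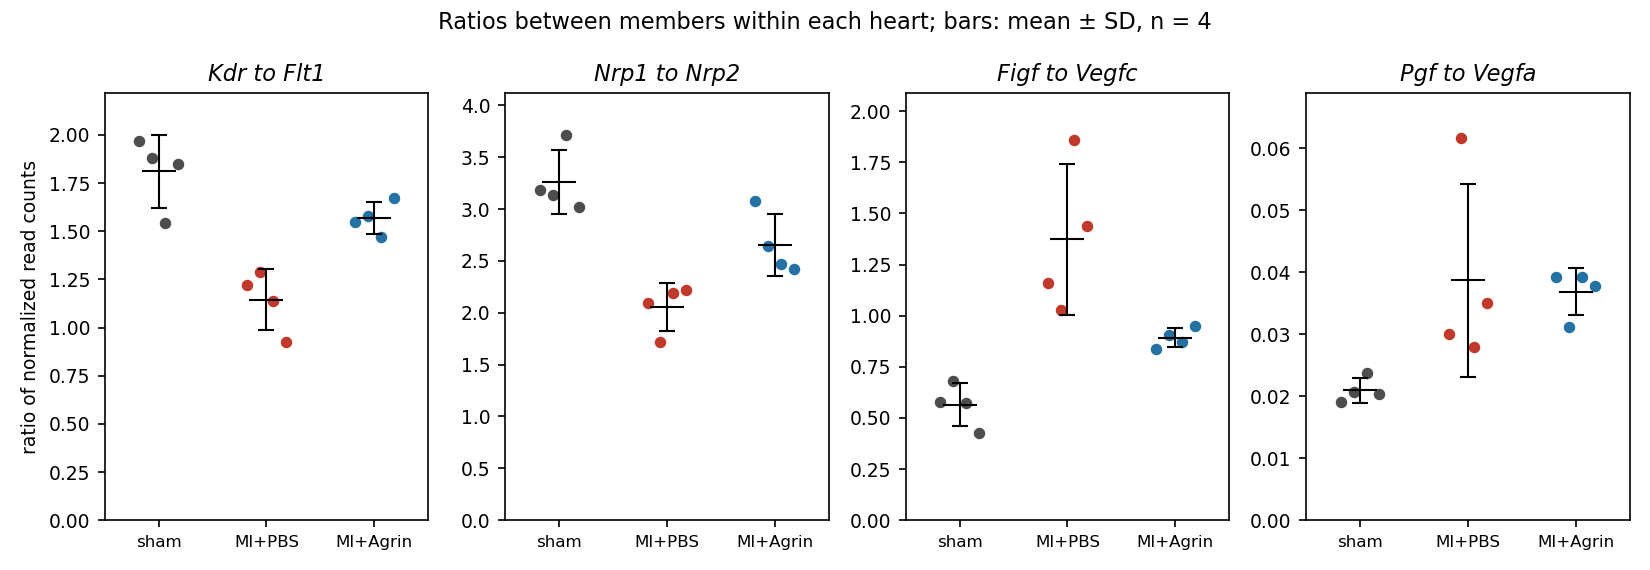
Ratios of normalized read counts between pairs of members within each heart (points, in the order of the replicate numbers), with the mean ± SD of 4 hearts per group; axes start at 0. Kdr to Flt1 averages 1.81 in sham, 1.14 in MI+PBS and 1.57 in MI+Agrin hearts, and Figf to Vegfc averages 0.566, 1.37 and 0.891.

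For each member that passed in any comparison, the genes with the most similar profile were found by the root mean square difference over the 12 libraries between log2 profiles, each centred on its own mean, among 12361 other genes. For Kdr they were Ptch1, the receptor of hedgehog ligands (0.105 log2 units), P2ry1, a purine receptor (0.127), and the protocadherin gene Pcdh18 (0.127), against 0.314 for the spread of Kdr itself. Ptch1 was at -0.62 after infarction and at 0.59 for agrin against PBS. It was picked for its likeness to Kdr in these same libraries, so values near those of Kdr follow from the choice. Vegfb had the closest neighbours, the complex I subunit gene Ndufs7 (0.054), the mitochondrial ATP carrier gene Slc25a4 (0.057) and Pex10 (0.061), a gene of peroxisome assembly. Nrp1 was nearest to Afap1l1 (0.072), Pgm5 (0.073) and Eml1 (0.083), and Vegfc to the laminin chain gene Lama3 (0.083), the histone gene Hist3h2a (0.106) and Rassf8 (0.11). Pgf was nearest to Phlda3 (0.121), Chst12 (0.131) and BC037034 (0.143). Figf had the least similar neighbours, Zfc3h1 and Galnt16 (0.186 each) and E030011O05Rik (0.189).

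Downstream of the receptors, 36 genes of signal transduction were all tested. After infarction 13 rose, 8 fell and 15 did not pass, with a median of 0.06. Over all genes tested 22.6% rose and 21.8% fell there. The shares were 0.751% and 0.892% for agrin against PBS and 15.4% and 13.2% for agrin against sham. They also stand beside the counts of every other list given here. In bulk tissue the counts cover all cell types of the heart, and the part of cell composition was not tested. Shb (0.69 ± 0.06), an adaptor that binds KDR, the scaffold gene Iqgap1 (0.80 ± 0.10) and the focal adhesion gene Pxn (0.41 ± 0.06) rose, as did the protein kinase gene Prkcd (0.53 ± 0.09). Plcg1, the phospholipase that KDR activates, fell (-0.31 ± 0.04), with limma adjusted p-values of these 5 genes from 1.87e-05 to 0.000443. For agrin against PBS 0 of 36 passed by limma or edgeR, 12 had an unadjusted limma p under 0.05 and DESeq2 called 3 lower. Against sham, MI+Agrin hearts had 8 higher and 3 lower (10 and 5 without MI+PBS replicate 2 and MI+Agrin replicate 1), again with Shb (0.56 ± 0.06) higher and Plcg1 (-0.29 ± 0.04) lower.

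Of 21 genes that regulate or traffic the receptors, 8 rose and 4 fell after infarction, and 6 were higher and 5 lower in MI+Agrin than in sham hearts (6 and 3 without the pair of libraries that stand apart, 6 and 1 with edgeR). For agrin against PBS 0 passed by limma or edgeR, 12 had an unadjusted limma p under 0.05 and DESeq2 called 2 lower. Ptpn1, a phosphatase that removes phosphate from KDR, rose (0.74 ± 0.06, limma adjusted p = 1.16e-05), as did the endocytic adaptor gene Dab2 (0.82 ± 0.09) and the integrin gene Itgb3 (1.17 ± 0.17). The heparan sulfate carrier gene Sdc1 (1.33 ± 0.13) rose with them. Myo6, the motor that carries internalized receptor, was lower than in sham by the same amount in both groups of infarcted hearts, at -0.46 ± 0.08 with PBS (limma adjusted p = 0.000427) and -0.46 ± 0.08 with agrin (limma adjusted p = 0.00117).

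Among 23 genes that VEGF-A induces in endothelial cells, 10 rose and 2 fell after infarction (8 and 3 without the pair of libraries that stand apart), with a median of 0.44. Plaur (1.92 ± 0.22), which encodes the urokinase receptor, Hbegf (1.17 ± 0.14) and the calcineurin inhibitor gene Rcan1 (0.93 ± 0.14) rose, and Dll4, the Notch ligand of endothelial tip cells, fell (-0.49 ± 0.10, limma adjusted p = 0.00181). Many of these genes are also induced in other cells, macrophages among them. With agrin against PBS Nr4a1, an orphan nuclear receptor gene, fell (-1.70 ± 0.23, limma adjusted p = 0.00306) and 22 did not pass. DESeq2 called 5 of the list lower there, and 2 were lower without the pair of libraries. MI+Agrin hearts had 6 genes higher and 2 lower than sham, and neither edgeR nor DESeq2 called those 2, Dll4 and Nr4a1, lower.

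Of 30 genes of ligand processing, matrix binding and inhibition, 15 rose and 1 fell after infarction (13 and 3 without the pair of libraries that stand apart), with a median of 0.29. Thbs1, which encodes the angiogenesis inhibitor thrombospondin, rose by 2.26 ± 0.18 (limma adjusted p = 1.17e-05). Sparc (1.14 ± 0.14), Col18a1 (1.09 ± 0.15), the source of endostatin, and Ctgf (1.70 ± 0.28), whose products bind matrix or VEGF, also rose, as did Sema3f (0.80 ± 0.10), a neuropilin ligand. Furin, the protease that processes VEGF-C and VEGF-D, rose by 0.38 ± 0.06. The gene that fell was Ccbe1, a cofactor of VEGF-C processing. With agrin against PBS, Thbs1 fell by 1.14 ± 0.18 on the log2 scale (limma adjusted p = 0.00756) and 29 did not pass, while 8 of the list had an unadjusted limma p under 0.05 and DESeq2 called 1 higher and 1 lower. Against sham, 13 were higher with agrin (8 with edgeR, 12 without the pair of libraries, when 3 were lower), Thbs1 at 1.12 ± 0.18 among them, and Ccbe1 was lower.

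Of 24 genes of hypoxia sensing and response, 10 rose and 3 fell after infarction, with a median of 0.10. Hmox1, the stress-induced heme oxygenase gene, rose by 2.98 ± 0.13. Hif1a, which encodes the oxygen-regulated subunit of the factor that induces Vegfa, rose (0.70 ± 0.06, limma adjusted p = 1.71e-05). Hypoxia-induced genes of the list were divided. Slc2a1 (0.67 ± 0.11) and Car9 (1.17 ± 0.19) rose, while Pdk1 (-0.60 ± 0.08) and Egln1 (-0.55 ± 0.09) fell. The 11 genes that did not pass included Ldha (0.03 ± 0.07), Pgk1 (0.08 ± 0.09) and Bnip3 (0.13 ± 0.17). Activity of the factor was not tested. With agrin against PBS, Hif1a fell by 0.38 ± 0.06 on the log2 scale (limma adjusted p = 0.00796) and 23 did not pass, while DESeq2 called 3 of the list higher and 2 lower. Between MI+Agrin and sham hearts 10 were higher and 2 lower (12 and 3 without the pair of libraries), with Ndrg1 at 0.50 ± 0.07 and P4ha1 at 0.61 ± 0.11.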

How the data were processed

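Poly-A RNA of 12 hearts was read as 61 bp single reads, 1 library per animal. The authors deposited 1 signal value per gene and library, which the header calls normalized counts. The submitters' processing notes name mm10, HTSeq, cutadapt, DESeq2 (1.10.1) and STAR (2.4.2a). They state neither the role of each tool nor the annotation or the strand setting. Values of 11 libraries were whole multiples of 1 step (99.99% to 100% within 0.0055), which gave whole reads. The step of sham replicate 2 was too near 1, so tests on reads leave it out. The branch of the design for normalized values was used.

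Genes with a mean of at least 5 were kept (14906 of 16218), 1 was added and log2 taken. The group means of all 12 libraries were fitted together with limma (3.58.1, under R 4.3.3), letting the variance follow the level, and p-values were adjusted over all genes tested. They measure the spread between animals, since the design text gives 4 animals per group. The fit was tested on simulated data. Alternatives were a pseudocount of 5, no filter or a mean of 20, TMM rescaling, no trend, edgeR 4.0.16, DESeq2 1.42.0, the 8 libraries compared, replicate block, array weights and left-out libraries. Cell type markers were endothelial (also venous and lymphatic), pericyte, fibroblast, macrophage, neutrophil, cardiomyocyte, dividing-cell, blood, adipocyte and lung lists. The members and lists were chosen with earlier results of these data known. The members were named throughout, with up to 6 genes of smallest p among those past the threshold per pathway list and comparison and the 3 nearest genes per member with a mean of at least 50. Marker genes are given by name alone, for at most 6 that passed. Some genes that the rule would name are not reported here. Coordinates and exon lengths are from GENCODE M21, where all 10 members were found, 1 under another symbol, and promoters from RefSeq, which held all 10. Python 3.11.15 and matplotlib 3.10.9 were used.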

Additional observations from a re-analysis of the deposited data

Results flagged for a closer look

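In MI+Agrin replicate 3 the normalized count of Flt1 was 3680, while its group mates lay between 3491 and 3499. The gap to the nearest of them was 0.958 of the group's range, more than Dixon's 95% critical value for 4 samples. It was 1 of 30 member groups examined, and chance flags about 1 in 20.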

How the results depend on the processing

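Of 690 member values under alternatives, 665 kept their direction and their side of the threshold. Kdr passed in both MI+PBS against sham and MI+Agrin against MI+PBS hearts under all 23 alternatives (0.48 to 0.61 in the latter, adjusted p at most 0.0445). The calls of Pgf, Figf, Vegfb, Vegfc and Nrp1 in MI+PBS against sham hearts, and of Pgf and Nrp1 in MI+Agrin against sham hearts, held under all 23 as well. Sign changes concerned differences near 0. In MI+PBS against sham hearts Flt1 was -0.0030 with DESeq2 and -0.03 to 0.09 with single libraries left out. For agrin against PBS, Nrp1 was 0.0078 with the replicate block, 0.0055 without MI+PBS replicate 2 and MI+Agrin replicate 1, and -0.06 to 0.05 with single libraries left out, and Vegfa was -0.02 without those 2 libraries and -0.02 to 0.14 with single ones left out. Flt4 relative to the median of the endothelial markers was 0.01, in place of just below 0 relative to their mean. The 245 genes called for agrin against PBS became 607 with DESeq2, 93 with the 8 libraries compared, 75 with the replicate block and 137 without both libraries that stand apart, and 137 to 327 with single libraries left out, lowest without MI+Agrin replicate 3 and 145 without MI+PBS replicate 2. The members lower in MI+Agrin than in sham hearts were 1 to 3 with single libraries left out, with 1 left without sham replicate 5 or MI+Agrin replicate 4. Among values that newly passed were Flt4 and Nrp2 in MI+PBS against sham hearts, each with 1 MI+PBS library left out. The causes were not tested. Same-numbered libraries did not deviate together (9 pairs, correlations -0.29 to 0.12), and pairs with different numbers ranged from -0.22 to 0.30. These values gave no sign of pairing by replicate number, but they cannot show whether animals were handled together. Over all genes, libraries of the same group with recovered reads differed by at least 9.92 times the sampling noise. For Pgf, Vegfc and Figf, the members with the fewest reads, counting error is a larger part of the spread and was not separated out. The spread between 4 animals limits what could be detected.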

Other observations

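Of 26 other angiogenic ligands and receptors, 7 rose and 5 fell after infarction (7 and 7 without MI+PBS replicate 2 and MI+Agrin replicate 1), with a median of 0.09. Angptl4, a lipase inhibitor gene induced by hypoxia and fasting, rose (2.29 ± 0.25, limma adjusted p = 4.16e-05), and Fgfr1 (0.45 ± 0.07), Acvrl1 (0.37 ± 0.06) and Pdgfb (0.36 ± 0.07) rose less. Tek, the receptor of angiopoietins, fell (-0.38 ± 0.07, limma adjusted p = 0.0011). With agrin against PBS Bmp4 was higher (0.61 ± 0.14, limma adjusted p = 0.0442), a call lost without both libraries, and 25 did not pass, while edgeR called 2 and DESeq2 2 higher and 2 lower. Between MI+Agrin and sham hearts 6 were higher and 4 lower (6 each without the pair), with the Notch ligand gene Jag1 (0.56 ± 0.09) higher and the angiopoietin gene Angpt1 (-1.01 ± 0.23) lower. Both had also passed in the same direction in MI+PBS against sham hearts, Jag1 at 0.31 ± 0.09 (limma adjusted p = 0.0136) and Angpt1 at -0.97 ± 0.23 (limma adjusted p = 0.00446), and neither passed for agrin against PBS.

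Among other marker lists, after infarction 3 of 7 venous and endocardial genes rose (Selp, Plvap and Vcam1), 6 of 12 pericyte and smooth muscle genes rose and 3 fell (Kcnj8, Abcc9 and Rgs5), and 2 of 11 resting fibroblast genes rose and 3 fell. Of activated fibroblast genes 8 of 10 rose, of neutrophil genes 6 of 7 and of dividing-cell genes 10 of 10. Of 5 blood and platelet genes Pf4 rose, and of 7 adipocyte genes Lep and Plin1 fell. By limma 0 of 6 atrial genes passed, with 0 at an unadjusted p under 0.05 and 0 by edgeR or DESeq2, though 2 were lower without the pair of libraries. Of 2 lung genes 0 passed by limma, 1 had an unadjusted p under 0.05, and edgeR and DESeq2, which leave out sham replicate 2, each called 1 higher. The 2 adipocyte calls were not made by edgeR, and DESeq2 made 1. With agrin against PBS Kcnj8 was the one gene of these lists to pass by limma, and it rose. DESeq2 also called 1 venous and 1 adipocyte gene higher and 1 pericyte gene lower there. An unadjusted limma p under 0.05 was found for 5 of 7 adipocyte genes (median of the list 1.16) and for 5 of 10 dividing-cell genes (median -0.51, or -0.19 without the pair of libraries). Between MI+Agrin and sham hearts 2 venous genes rose, 4 pericyte genes rose and 3 fell, and 1 resting fibroblast gene rose and 1 fell. In that comparison 7 activated fibroblast, 5 neutrophil, 10 dividing-cell and 2 blood genes rose, and 0 atrial, adipocyte or lung genes passed by limma (1 at an unadjusted p under 0.05, a lung gene, which edgeR and DESeq2 called higher).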
